A study of Salmo salar with 16 samples.

Results

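The genes described here encode the machinery that docks, primes and fuses transmitter-filled vesicles in Atlantic salmon (Salmo salar). They were taken from the deposited annotation of the genome assembly ICSASG_v2 when the gene description or exon product named a synaptotagmin, synaptophysin, synaptogyrin, syntaxin, synaptosomal-associated protein, vesicle-associated membrane protein, complexin, synapsin or synaptic vesicle glycoprotein. Names containing "synaptotagmin-like protein" and "syntaxin binding" were left out. The rule used no expression value and found 199 of the 81574 genes in the count table. Of these members 187 lie on the 29 chromosomes and 12 on unplaced scaffolds, where all 29314 genes of the table have 0 counts, so those 12 were not measured. Of the 187, 4 had 0 counts in every library and 166 passed the filter on low counts and were tested. A member with reads in 1 tissue only could pass that filter through that tissue. The highest total count among the 21 untested members on the chromosomes was 586 over all libraries.

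In the textbook scheme, release is driven by SNARE proteins, which zip together across the gap between a vesicle and the plasma membrane. VAMPs (synaptobrevins) sit on the vesicle, while syntaxins and the SNAP-25 group sit on the target membrane, and synaptotagmins sense the calcium that triggers fusion. Complexins clamp and assist the partly zipped complex, synapsins tether vesicles in reserve, and SV2 proteins, synaptophysins and synaptogyrins are membrane proteins of the vesicle itself. The same protein families serve secretion outside the nervous system, for example hormone release in the pituitary gland and the release of cortical granules from eggs, and many syntaxins and VAMPs work only in traffic between internal membranes.

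Liver, ovary, mid-brain and pituitary gland were taken from 4 untreated female fish of the SALTAS breeding program, sexually immature and aged 3 years, which gave 16 libraries, 4 per tissue. The tissues therefore share their animals, but which library of a tissue came from which fish is not given in the sources used here. Each library held between 20.6 and 51.9 M counted reads, and brain replicate 2 was the deepest. The summed level of 14 neuron marker genes was 841 to 2810 CPM (counts scaled to library size) in the brain, 166 to 207 in the pituitary, 4.49 to 6.37 in the ovary and 5.67 to 8.7 in the liver, and each other tissue held markers of its own cells. Brain libraries 3 and 4 had the lowest neuron marker sums, 2060 and 841 CPM, against 2770 and 2810 in libraries 1 and 2. The oocyte list, which is made of zona pellucida genes and zygote arrest protein 1, reached 20900 to 24100 CPM in the liver and 3730 to 4570 in the ovary, so it did not separate these tissues. Levels below are FPKM, that is CPM scaled for library composition and divided by the merged exon length in kilobases, given as mean ± SD of 4 libraries. Log2 fold changes carry their SE and come from edgeR (quasi-likelihood test, p-values adjusted by Benjamini-Hochberg over 37043 genes). Calls needed an adjusted p no greater than 0.001 and an absolute log2 fold change no smaller than 2, and a gene was termed specific to a tissue when called higher there than in each of the other 3.

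The release genes were called higher in the brain more often than all tested genes were. Of the 166 tested members, 81 had their highest mean level in the brain, 27 in the pituitary, 38 in the ovary and 20 in the liver. How all tested genes divide by highest tissue was not counted, so this division alone does not set the members apart. Families differed, with 31 of 40 synaptotagmins but 5 of 35 syntaxins and 0 of 8 synaptogyrins highest in the brain. Against the liver, 85 members were higher in the brain and 9 in the liver, a total of 56.6% of those tested where 32.9% of all tested genes were called. Against the ovary, 84 were higher in the brain and 23 in the ovary, or 64.5% compared with 46.6% of all genes. Against the pituitary, 47 were higher in the brain and 13 in the pituitary, or 36.1% compared with 15.7%. In these bulk tissues fewer cells of a type and less RNA per cell cannot be told apart.

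In the pituitary 62 members were higher than in the ovary and 20 lower, 49.4% called against 41.2% of all genes, and 67 were higher than in the liver and 7 lower, 44.6% against 28.2%. There were 42 members higher in both brain and pituitary than in both ovary and liver, where 7.42% of all tested genes were. Of these 42, 19 were also higher in brain than in pituitary, as were 402 of the 2750 genes that had this joint pattern among all tested. None of the 42 was called higher in the pituitary than in the brain, and only 139 of those 2750 genes were. At so small a share few or none of 42 would be called, so this does not set the members apart. Neither comparison of shares was tested. The ovary and liver had the fewest called members. Between them 30 members were higher in the ovary and 17 in the liver, 28.3% called where 40.8% of all genes were. That split depended on scaling. When libraries were scaled by their totals alone, the median of all genes moved by 1.44 log2 units towards the ovary. The members then divided into 62 higher in the ovary and 8 in the liver, where 42.0% and 9.75% of all genes were. In that scaling the median of all genes also moved by 1.39 towards the brain and by 0.94 towards the pituitary in the comparisons with the liver, and by 0.53 towards the ovary against the pituitary. The members then divided into 102 and 3 between brain and liver, where 38.2% and 5.37% of all genes were called. Between pituitary and liver they divided into 86 and 3 (26.7% and 7.06% of all genes), and between pituitary and ovary into 51 and 28 (17.9% and 25.4%).

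**Figure D1:**
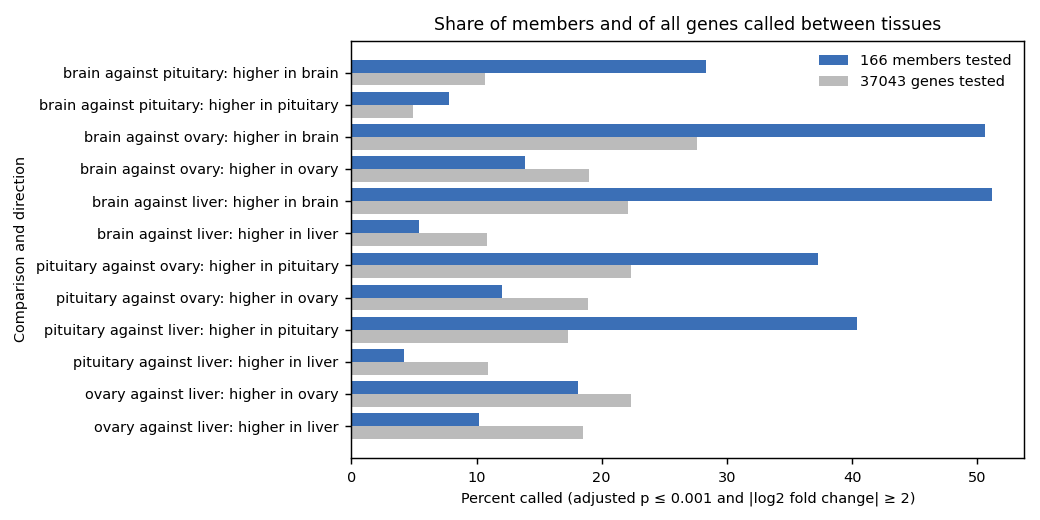
Percent of the 166 tested members (blue) and of all 37043 tested genes (grey) called in each direction of the 6 tissue comparisons. Members exceed all genes in every bar for a higher level in the brain or in the pituitary. The values are 51.2% against 22.1% for brain over liver and 7.83% against 4.91% for pituitary over brain. Members fall below all genes in every bar for a higher level in ovary or liver.

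There were 39 members specific to the brain, 3 to the pituitary, 10 to the ovary and 3 to the liver, where the shares among all tested genes were 6.11%, 2.16%, 11.1% and 5.80%. Synaptotagmins gave 17 of the 39 brain-specific members, SV2 proteins 6, synapsins 5, VAMPs and complexins 3 each, syntaxins and the SNAP-25 group 2 each and synaptophysins 1. Synaptogyrins gave none. There were 26 tested members called in no comparison, 9 of them syntaxins and 5 of them VAMP-associated proteins. The share of all tested genes called in no comparison was not counted, so it is open whether 26 is few or many.

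The text of the annotation brought in 20 members that are not fusion proteins in the sense above. They are 8 extended synaptotagmins, which tether the endoplasmic reticulum to the plasma membrane, 3 genes named synaptotagmin-like without the word protein, which are granule proteins in mammals, 8 VAMP-associated proteins (VAPs), which are endoplasmic reticulum anchors, and syntabulin, a linker of syntaxin-bearing cargo to kinesin. Without them, a division chosen after the values were seen, the brain-specific members remained 39 and the pituitary-specific 3, while the ovary-specific fell in number to 7. The share called between brain and ovary was then 67.1% of 146.

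**Figure D2:**
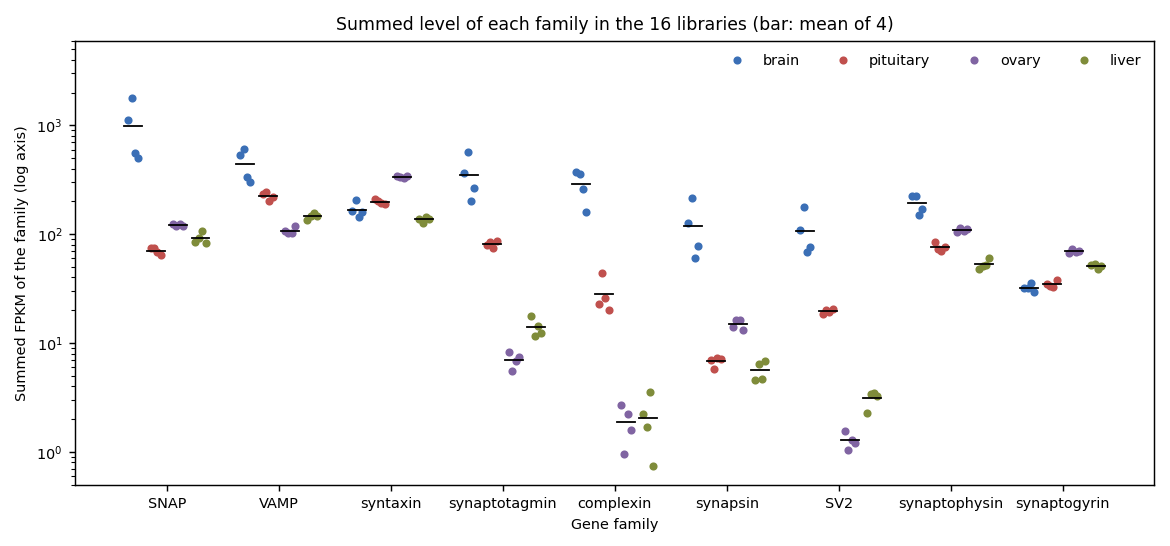
Summed FPKM (log axis) of 9 families in each of the 16 libraries, with 1 point per library and a bar at the mean of 4. Complexin, SV2 and synaptotagmin sums fall from brain to pituitary to ovary or liver, whereas syntaxin sums are highest in the ovary, at 327 to 342, and synaptogyrin sums stay between 29.6 and 73.8.

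Among the target-membrane SNAREs, the SNAP-25 group changed its leading gene from tissue to tissue. In the brain it was sn25a, which encodes SNAP-25-A and lies on chromosome 6 at 72554812 to 72587031 of ICSASG_v2. Its FPKM was 1050, 1470, 503 and 417 in brain replicates 1 to 4, against 5.12 to 6.25 in the pituitary, 1.16 to 2.03 in the ovary and 1.63 to 3.53 in the liver. This was the highest FPKM of any member in any tissue, 858 ± 493 (SD, n = 4), and no brain library came near the other tissues. It gave 87.2% ± 5.88 of the summed FPKM of the SNAP family in the brain. The log2 fold change was 7.26 ± 0.45 over the pituitary (adjusted p = 7.0e-09 by edgeR's quasi-likelihood test), and 9.13 ± 0.49 over the ovary. Its paralog LOC106571603, also annotated as SNAP-25-A, was likewise brain-specific, with 18.8, 31.3, 6.52 and 54.3 FPKM in the brain libraries and 0.149 or less in the other 12. Unlike sn25a, it was highest in brain replicate 4.

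In the pituitary the leading gene was LOC106580895, annotated as SNAP-25-like, on chromosome 20 at 46355878 to 46364692. It measured 30.3, 28.9, 22.2 and 26.2 FPKM in the pituitary, and the other 12 libraries ranged from 0 to 0.326. It was specific to the pituitary, 7.10 ± 0.44 log2 units above the brain (adjusted p = 7.0e-09, edgeR's quasi-likelihood test), and made up 38.3% ± 3.92 of the pituitary SNAP sum. So sn25a and LOC106580895, products of the same gene group, had opposite orders in the neighbouring organs.

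In the ovary and liver the group was carried by relatives that act in general secretion and membrane traffic. SNAP-29, a SNARE of internal membranes and autophagy encoded by snap29, measured 60.6 ± 5.33 in the ovary and 65.1 ± 8.28 in the liver, and these did not differ beyond their spread (log2 fold change 0.10 ± 0.13 in favour of the liver, adjusted p = 0.49 by edgeR's quasi-likelihood test), although scaling by totals alone gave a log2 fold change of -1.38 for liver over ovary. Brain and pituitary held 16.3 ± 2.28 and 18.6 ± 2.24. SNAP-23, the widespread counterpart of SNAP-25 in non-neuronal cells, is encoded by snp23 and snap23. Gene snp23 was ovary-specific, with 33.5, 38.6, 30.6 and 32.3 FPKM in the ovary and 1.74 to 6.28 elsewhere, and stood 2.60 ± 0.17 log2 units above the liver (adjusted p = 7.2e-10, edgeR's quasi-likelihood test). Gene snap23 measured 19.3 ± 0.877 in the ovary and 10.1 ± 1.18 in the liver, a difference of 0.94 ± 0.24 that was not called.

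The syntaxins, the other target-membrane SNAREs, were divided among the tissues. Of 35 tested, 18 had their highest level in the ovary, 8 in the pituitary, 5 in the brain and 4 in the liver. No such count was made for all tested genes. Against the ovary, 6 were higher in the brain and 11 in the ovary. Of all genes, 27.6% were higher in the brain in that comparison and 46.6% were called in either direction. Against the liver, 7 were higher in the brain and 2 in the liver, where 22.1% and 10.8% of all genes were. Between brain and pituitary, 3 of the 35 were higher in the brain and 8 in the pituitary, where 10.7% and 4.91% of all genes were. Syntaxins thus made up 8 of the 13 members that were higher in the pituitary. Of the brain-specific syntaxins, LOC106600813 on chromosome 3 had 22.8, 46, 10.7 and 24.2 FPKM in the brain, against 1.36 to 2.09 in the pituitary, and was 4.03 ± 0.34 log2 units higher in the brain (adjusted p = 1.3e-07, edgeR's quasi-likelihood test). No brain library overlapped those of the other tissues.

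Syntaxin-1A, a partner of SNAP-25 in neurons and endocrine cells, showed the reverse order. Its gene LOC106567662 on chromosome 13 measured 9.9 ± 0.838 FPKM in the pituitary and 9.67 ± 2.11 in the ovary, with no difference beyond the spread (0.03 ± 0.38, adjusted p = 0.94 by edgeR's quasi-likelihood test). In the brain it measured 0.934, 0.341, 1.65 and 2.3, which did not overlap the pituitary or ovary values, and it was 2.94 ± 0.42 log2 units lower there than in the pituitary (adjusted p = 2.7e-05). Further syntaxins shared the pattern of high pituitary and ovary with low brain and liver. Syntaxin-2-like LOC106563160 had 41.4, 37.2, 38.6 and 39.2 FPKM in the ovary, 10.5 to 13.5 in the pituitary and 0.243 to 0.759 in the 8 brain and liver libraries. Syntaxin 3, stx3, had 18.9 ± 3.16 in the pituitary and 20.1 ± 1.08 in the ovary, and its relative LOC106604672 had 5.92 ± 0.243 and 13.7 ± 0.259, while both stayed at or under 2.29 in every brain and liver library. In mammals, syntaxins 2 and 3 serve regulated secretion in epithelial, endocrine and blood cells. In all, 6 members were higher in both pituitary and ovary than in both brain and liver, where 0.783% of all tested genes were, and these 4 syntaxins were joined by extended synaptotagmin-3-like LOC106581688 and synaptotagmin-15-like LOC106589230.

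Further syntaxins were specific to the ovary or pituitary. LOC106611340, similar to syntaxin-11, a SNARE of cytotoxic granules in mammals, lies on chromosome 9 at 40646233 to 40648448 and measured 31.4, 31.9, 25.4 and 24.8 FPKM in the ovary against 0.112 to 2.59 in all other libraries. It stood 3.76 ± 0.34 log2 units above the liver (adjusted p = 4.6e-08, edgeR's quasi-likelihood test). The other ovary-specific syntaxins were stx11, at 1.41 ± 0.322, and syntaxin-4-like LOC106589274, at 13.1 ± 0.663. Syntaxin-19-like LOC106582163 was pituitary-specific at a low level, with 18, 13, 30 and 28 reads in the pituitary, 2 reads in 1 ovary library and 0 in every brain and liver library. With the brain at its floor of 3 reads, the pituitary level was at least 10.4-fold higher. The second pituitary-specific syntaxin was stx2, at 0.863 ± 0.129 against 0.121 or less elsewhere.

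Syntaxins of internal membranes were present throughout. Syntaxin 7 of late endosomes, stx7, gave 29.3% ± 1.16 of the syntaxin sum in the liver, with 40.1 ± 3.24 FPKM there, 36.6 ± 3.76 in the ovary, 13.5 ± 1.24 in the brain and 12.6 ± 0.911 in the pituitary, and was called in no pair (liver over ovary -1.35 by totals alone). Syntaxin-5 of the Golgi, stx5, was the highest syntaxin of the pituitary at 27 ± 2.88, and was 2.48 ± 0.12 log2 units above the ovary (adjusted p = 2.5e-11, edgeR's quasi-likelihood test). The order was reversed by its relative LOC106604387, with 17.7 ± 0.864 in the ovary and 7.67 ± 0.755 in the pituitary, a difference that was not called.

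**Figure D3:**
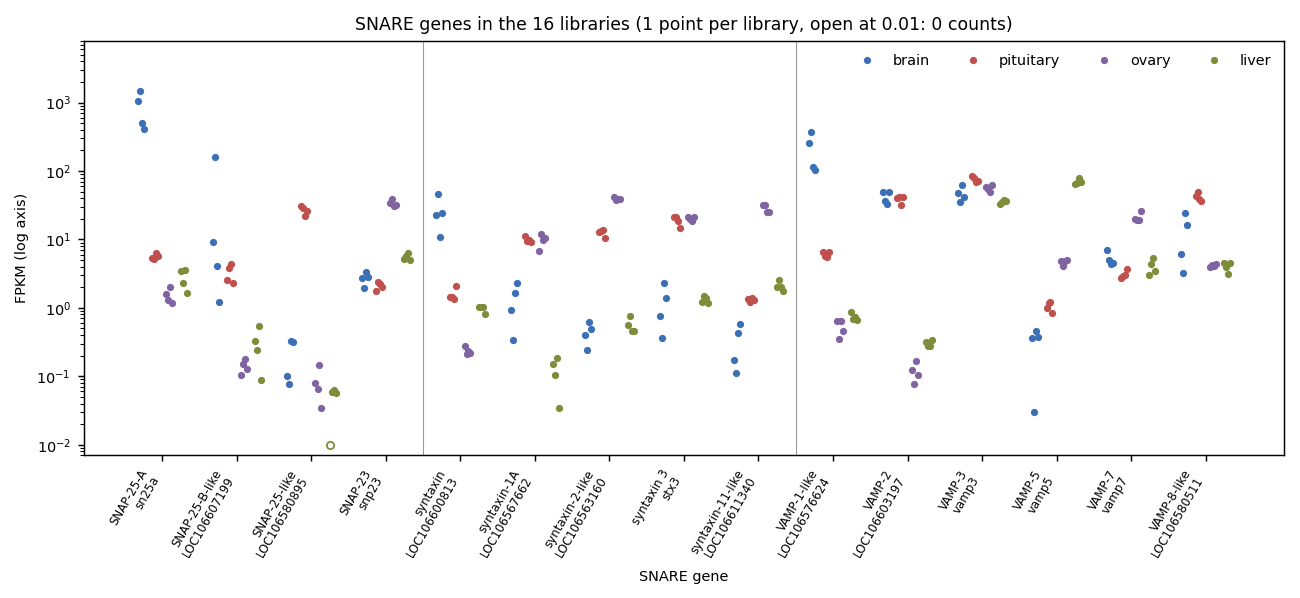
FPKM (log axis) of 15 SNARE genes in the 16 libraries, grouped by vertical lines into the SNAP group, syntaxins and VAMPs, with 1 point per library and open symbols at 0.01 for 0 counts. SNAP-25-A, the syntaxin LOC106600813 and VAMP-1-like are highest in the brain, SNAP-25-like in the pituitary, SNAP-23 and syntaxin-11-like in the ovary and VAMP-5 in the liver, and the brain points spread more than those of the other tissues.

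On the vesicle side, VAMP-1 and VAMP-2 are the synaptobrevins of neurons. VAMP-1-like LOC106576624, on chromosome 2 at 10231625 to 10240152, had 253, 367, 115 and 102 FPKM in the brain, 5.52 to 6.61 in the pituitary and 0.354 to 0.884 in ovary and liver. It was brain-specific, 5.10 ± 0.38 log2 units over the pituitary (adjusted p = 4.3e-08, edgeR's quasi-likelihood test), and gave 43.9% ± 12.4 of the VAMP sum in the brain. Its paralog LOC106574196, also on chromosome 2, had 93, 100, 28.3 and 20.4 in the brain and 3.63 to 5.82 in the pituitary. Its exons overlap those of an opposite-strand gene over 767 bases, and because the strand setting of the counting is not given, part of its reads may belong to that gene, whose total was 467 counts against 41330. VAMP-2 is carried by 4 genes, of which the most abundant, LOC106603197, had 48.9, 37, 33 and 49 in the brain and 40.3, 41.8, 31.8 and 42.2 in the pituitary. These ranges overlapped, with a log2 fold change of 0.11 ± 0.18 (adjusted p = 0.64), and both were higher than the ovary, at 0.0771 to 0.167. VAMP-2-like LOC106563390 had the same shape at 14.3 ± 4.59 and 13.2 ± 2.5 in brain and pituitary and 0.154 or less in ovary and liver. The other 2 were lower in the pituitary than in the brain. LOC106588428 was brain-specific, with 5.71, 5.02, 5 and 1.99 in the brain and 1.09 ± 0.174 in the pituitary (2.02 ± 0.43, adjusted p = 0.00098, edgeR's quasi-likelihood test). LOC106570163 measured 3.1 ± 0.445 in the brain and 0.113 ± 0.151 in the pituitary, which was not called (4.69 ± 0.99, adjusted p = 0.0015).

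The VAMPs that follow are best known from traffic outside synapses. VAMP-3 (cellubrevin), vamp3, was the highest VAMP of the pituitary at 75.5 ± 6.46 and of the ovary at 55.7 ± 5.1, and with 47.3 ± 11.7 in the brain and 35.6 ± 2.08 in the liver it was called in no pair. VAMP-5, a myobrevin known from muscle in mammals, was liver-specific. Gene vamp5, on chromosome 1 at 134958676 to 134961198, had 65.1, 66.2, 77.8 and 69.8 in the liver, 4.13 to 5.03 in the ovary and 1.22 or less in brain and pituitary. It stood 3.89 ± 0.34 log2 units above the ovary (adjusted p = 3.1e-08, edgeR's quasi-likelihood test) and gave 47.6% ± 1.67 of the liver VAMP sum. The second liver-specific VAMP was VAMP-8-like LOC106568330, at 5.67 ± 1.65, whose exons overlap an opposite-strand gene with 9698 counts over 557 bases, against 766 counts of its own. VAMP-7, an endosomal and lysosomal SNARE encoded by vamp7, was called ovary-specific by a narrow margin, with 19.7, 19.3, 19.3 and 26.4 in the ovary against 4.36 to 7.03 in the brain. Its log2 fold change over the brain was 2.01 ± 0.20. It measured 1.89 to 1.99 when brain replicate 2, 3 or 4 or ovary replicate 4 was left out, and 1.78 with DESeq2 size factors.

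On chromosome 20 a VAMP-5-like and a VAMP-8-like gene lie 6768 bases apart on the same strand, and both were highest in the pituitary, at 4.44 ± 0.695 for LOC106580509 and 41.9 ± 5.32 for LOC106580511. On chromosome 24 the corresponding genes lie 1545 bases apart, and the VAMP-8-like LOC106585118 measured 15.1 ± 3.31 in the brain and 15.5 ± 0.607 in the ovary where VAMP-5-like LOC106585117 measured 13.1 ± 4.23 and 0.22 ± 0.1. Only 3 pairs of members lie within 20000 bases of each other, the third being the syntaxin-11 genes LOC106603863 and stx11 on chromosome 1.

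Synaptotagmins were the largest family, with 33 of 40 tested members higher in the brain than in the ovary, where 27.6% of all genes were, and 33 than in the liver, where 22.1% were. Synaptotagmin-1 and synaptotagmin-2 are the fast calcium sensors of transmitter release. The highest in the brain was synaptotagmin-2-like LOC106566022, on chromosome 12 at 79437670 to 79482424, with 41.4, 68.9, 26.5 and 17.1 FPKM in the brain and 0.0569 to 0.297 elsewhere. Synaptotagmin-2-like LOC106582708, on chromosome 22, had the largest margin over its next tissue, with 41.4, 30.4, 24.2 and 14 in the brain and 0.135 or less in the other 12 libraries. Its log2 fold change was 8.42 ± 0.45 over the liver (adjusted p = 1.7e-10, edgeR's quasi-likelihood test) and more over the other tissues. LOC106567284 and LOC106572421 carry the same product name and were also brain-specific, at 13.9 ± 10.7 and 14.1 ± 9.82.

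The fifth gene of that name broke the pattern. LOC106600948, on chromosome 3 at 52657938 to 52671218, measured 13.2, 8.73, 10.1 and 9.06 in the liver and 0 to 0.802 in all other libraries. It was liver-specific, 4.78 ± 0.56 log2 units above the brain (adjusted p = 1.4e-06, edgeR's quasi-likelihood test), and gave 73.2% ± 1.91 of the liver's summed synaptotagmin FPKM. A later RefSeq annotation on assembly Ssal_v3.1 gives this gene the symbol syt5a, so its synaptotagmin-2 name here may not hold.

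Of the 3 tested genes annotated synaptotagmin-1-like, LOC106561125 had at most 37 reads in any library, and the others were not called between brain and pituitary. LOC106576317 had 12.3, 6.01, 8.39 and 13.5 in the brain and 12.8, 15.2, 9.5 and 14.2 in the pituitary, a difference of 0.36 ± 0.30 towards the pituitary (adjusted p = 0.33 by edgeR's quasi-likelihood test). LOC106609413 had 9.81, 4.48, 10.4 and 18.6 in the brain and 11.3, 11.6, 11.2 and 13.4 in the pituitary, a difference of 0.14 ± 0.30 (adjusted p = 0.72). The 2 were lowest in brain replicate 2, the library in which most brain-specific members were highest. Relative to the ovary each was over 7 log2 units higher in both tissues. Only 1 synaptotagmin was higher in the pituitary than in the brain, synaptotagmin-15-like LOC106589230, at 2.4 ± 0.722 against 0.0407 ± 0.0161. In the ovary the highest synaptotagmin was syt16, at 1.01 ± 0.0838, and the whole family there summed to 7 ± 1.12 FPKM, against 353 ± 162 in the brain, 82 ± 5.28 in the pituitary and 14 ± 2.76 in the liver.

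Complexins bind the assembled SNARE complex. Of 15 members 8 were tested, and the 3 complexin-1 genes were brain-specific. Gene cplx1, on chromosome 4 at 15797447 to 15808216, had 179, 185, 130 and 72.9 FPKM in the brain, 14.1 to 16.4 in the pituitary and 0.749 or less in ovary and liver. The log2 fold change over the pituitary was 3.18 ± 0.28 (adjusted p = 2.4e-07, edgeR's quasi-likelihood test). LOC106609885 had 166, 157, 110 and 57.1 in the brain, and in the pituitary its replicate 2 stood at 24.3 where the other 3 libraries had 3.11 to 4.86. LOC106604630 had 22, 12.5, 14.8 and 24.4 in the brain and, unlike cplx1, was not lowest in replicate 4. Complexin-4-like genes, known from ribbon synapses of the retina, were scarce and uneven. In the liver LOC106569619 measured 1.27, 0.832, 2.29 and 0, and in the ovary cplx4 measured 1.49, 0.0124, 1.08 and 0.474.

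All 8 synapsins were tested and higher in the brain than in the pituitary, where 10.7% of all genes were. The highest was synapsin-1-like LOC106579888, with 32.4, 60.5, 13.9 and 18 FPKM in the brain and 1.39 to 1.77 in the pituitary, a log2 fold change of 4.32 ± 0.41 (adjusted p = 5.3e-07, edgeR's quasi-likelihood test). The ovary held a synapsin 3. Gene syn3 measured 5.88, 7.85, 7.18 and 5.85 in the ovary and 5.02, 10.9, 2.61 and 2.05 in the brain, and these overlapped (0.37 ± 0.48 lower in the brain, adjusted p = 0.48). Its neighbour in name LOC106609255 measured 6.12 ± 0.491 in the ovary and 9.68 ± 5.75 in the brain, again with overlap, while a further synapsin-3-like gene, LOC106576044, was brain-specific at 1.62 ± 0.843 and was at 0.0558 or less elsewhere. The genes syn3 and LOC106609255 follow each other on chromosome 7 on the same strand, from 33568958 to 33655529 and from 33677287 to 33681798. In the liver synapsin-2, LOC100136520, measured 3.84, 5.5, 3.23 and 6.01, and gave 81.8% ± 8.46 of the synapsin sum.

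SV2 proteins are transporter-like glycoproteins of synaptic and endocrine vesicles. Of 10 tested, 9 were higher in the brain than in the ovary (27.6% of all genes) and 9 than in the liver (22.1%). In the pituitary 8 were higher than in the ovary (22.3%) and 8 than in the liver (17.3%). SV2A-like LOC106570185 led in both tissues, with 30.1, 30.3, 13.4 and 19.7 FPKM in the brain and 4.34 to 5.1 in the pituitary, against 0.157 or less in ovary and liver. The difference between brain and pituitary was 2.33 ± 0.23 (adjusted p = 5.7e-07, edgeR's quasi-likelihood test). SV2C-like is the name of 4 tested genes. LOC106585040 had 8.2, 19.5, 6.24 and 2.33 in the brain and 0.0624 or less elsewhere. LOC106580415 was also brain-specific, at 7.23 ± 3.12, while LOC106563032 measured 1.25 ± 0.999 in the brain and 1.42 ± 0.216 in the pituitary. LOC106560774 was found in all 4 tissues, at 1.79 ± 0.528, 2.84 ± 0.286, 0.633 ± 0.0713 and 2.52 ± 0.494 in brain, pituitary, ovary and liver, and formed 81% ± 3.94 of the liver SV2 sum.

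Synaptophysins and synaptogyrins are related tetraspan proteins of small vesicles. Synaptophysin itself followed the brain and pituitary. Gene syp had 93.7, 86.3, 47.1 and 70.6 FPKM in the brain, 19.6 to 25 in the pituitary and 0.395 or less in ovary and liver, and its 1.74 ± 0.24 log2 units between brain and pituitary stayed under the limit of 2. The second synaptophysin gene LOC100380661 had 75.7, 87.2, 41.9 and 48.6 in the brain, 12.6 to 17 in the pituitary, 0.122 to 0.166 in the ovary and, unlike syp, 4.81 to 5.54 in the liver. It was called brain-specific at 2.03 ± 0.20 over the pituitary (adjusted p = 6.4e-07, edgeR's quasi-likelihood test), but measured 1.84 to 1.94 when brain replicate 1, brain replicate 2 or pituitary replicate 3 was left out. The synaptophysin-like proteins, which are known from non-neuronal tissue, had other profiles. Synaptophysin-like protein 2, LOC106572864, was ovary-specific at 36.4, 42.5, 37.3 and 38 against 1.12 to 6.99 elsewhere, 3.09 ± 0.32 log2 units above the brain (adjusted p = 1.9e-07). Synaptophysin-like protein 1 is carried by 5 genes, whose highest tissue was the ovary for 2 and the brain, pituitary or liver for the other 3. Of these, LOC106565128 reached 40.7 ± 1 in the ovary and LOC106583473 reached 18.1 ± 3.97 in the liver and 12.9 ± 1.91 in the ovary, an order that flipped when libraries were scaled by totals alone (log2 fold change of -0.99 for liver over ovary).

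No synaptogyrin had its highest level in the brain. Synaptogyrin-1-like LOC106600879, on chromosome 3, measured 22.9, 26.3, 25.1 and 24.9 FPKM in the ovary, 9.62, 13, 4.91 and 5.74 in the brain and 0.332 to 2.26 in pituitary and liver. The ovary and brain differed by 1.57 ± 0.26 log2 units, which was not called. LOC106607452 of the same name was ovary-specific at 11.2 ± 0.812 against 2.15 ± 1.04 in the brain (2.37 ± 0.30, adjusted p = 1.8e-06 by edgeR's quasi-likelihood test), a difference of 1.94 when brain replicates 3 and 4 were left out. Synaptogyrin-2-like LOC106564351, of the form known as ubiquitous in mammals, was highest in the liver at 23 ± 1.94.

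Among the members that entered through their annotation text, 3 were specific to the ovary. Syntabulin, sybu on chromosome 5 at 47489587 to 47507465, had 91.6, 93.3, 86.5 and 72.1 FPKM in the ovary, the highest of any member there, and 13.4 to 23.4 in the brain, 3.17 to 3.91 in the pituitary and 0.948 to 1.41 in the liver. It was ovary-specific, 2.34 ± 0.17 log2 units above the brain (adjusted p = 4.1e-09, edgeR's quasi-likelihood test). Extended synaptotagmin-3-like LOC106581688 at 10.2 ± 0.65 and sytl3 at 2.94 ± 0.312 were also ovary-specific. The highest extended synaptotagmin of brain and pituitary, LOC106565469, had 14 ± 5.1 and 9.67 ± 0.985 there, while LOC106599471 led in the liver at 6.89 ± 0.397 and was called in no pair. Of 8 VAPs, 5 measured between 12.8 and 20.7 FPKM in the brain and 5 were called in no pair. The highest VAPs of the 4 tissues were LOC106565072 in the brain at 20.7 ± 8.46, LOC106583688 in the pituitary at 15.6 ± 1.87, LOC106590340 in the ovary at 16.7 ± 0.74, whose exons overlap an opposite-strand gene over 140 bases, and LOC106566691 in the liver at 16.2 ± 1.48. The remaining synaptotagmin-like genes, sytl5 and sytl2, did not exceed 2.52 in any library.

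**Figure D4:**
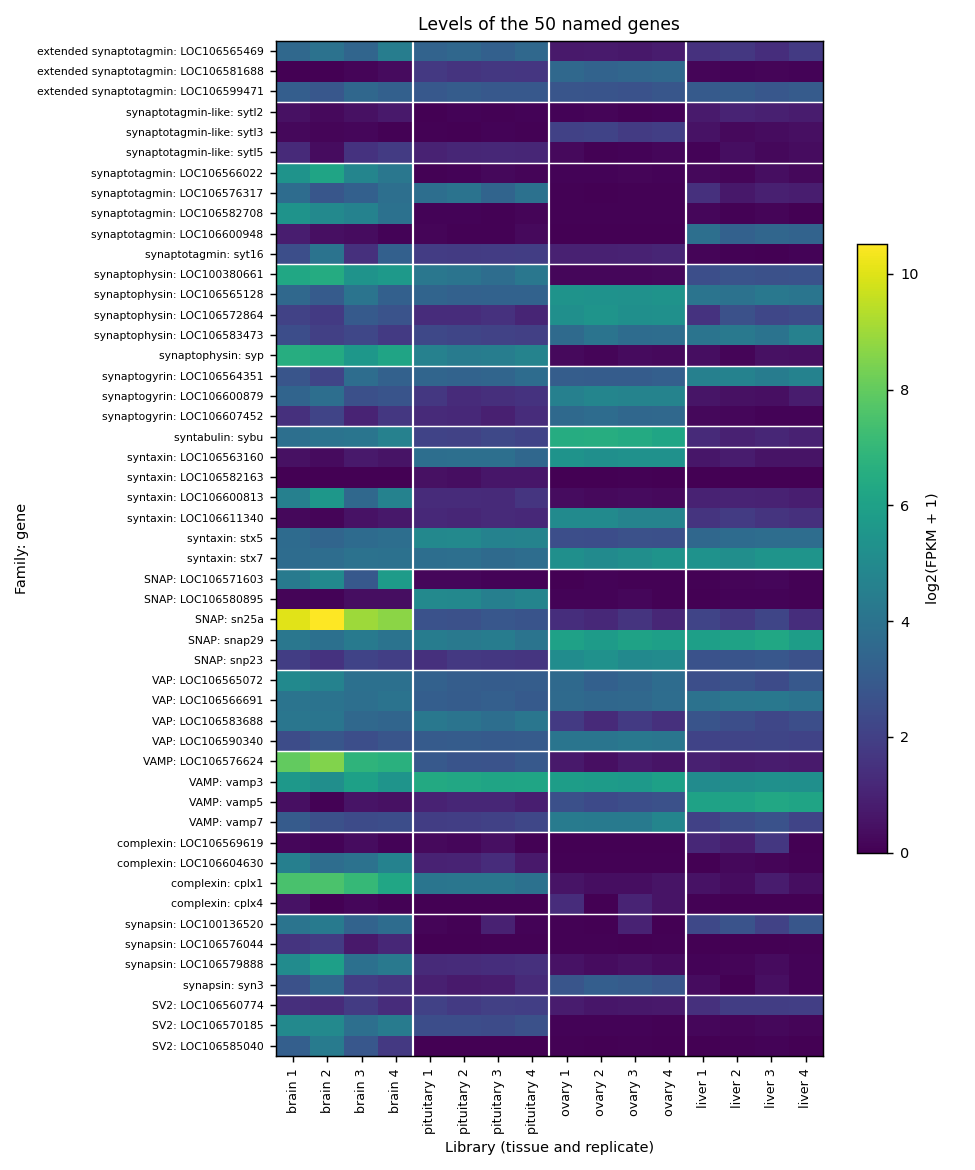
Level of the 50 genes named by rule, as log2(FPKM + 1), in the 16 libraries, with rows grouped by family and columns by tissue. Gene sn25a in brain replicate 2, at 1470 FPKM, is the brightest cell, and within most families the bright rows change from brain to ovary or liver.

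Genes of the same name did not always share their highest tissue. Of 44 product names carried by at least 2 tested members, 24 had all their members highest in the same tissue and 20 did not. The highest tissue was taken by mean level without a call, so near-ties count as differences. The same count was not made over all genes. All 4 synaptotagmin-11-like, 4 synaptotagmin-9-like, 4 VAMP-2 and 4 SV2A-like genes were highest in the brain, whereas the 4 VAMP-8-like genes were divided among pituitary, ovary and liver. Reads of near-identical copies are lost when only uniquely mapped reads are counted, so the levels of close paralogs may be low.

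The brain libraries differed among themselves more than those of the other tissues. The median coefficient of variation over members with a mean CPM of at least 1 was 37.1% in the brain, where it was 29.3% over all genes, and 12.2%, 10.6% and 16.7% in pituitary, ovary and liver, where all genes had 12.8%, 11.9% and 16.9%. Of the 39 brain-specific members 24 were highest in brain replicate 2, 9 in replicate 1, 6 in replicate 4 and 0 in replicate 3, and 21 were lowest in replicate 3 and 16 in replicate 4. The median level relative to a gene's brain mean was 1.16, 1.55, 0.573 and 0.691 in replicates 1 to 4. Neither the order nor these levels were worked out for all brain-specific genes, so they cannot be read as particular to the members. The sum of neuron markers followed a similar but not identical order, with 2770, 2810, 2060 and 841 CPM, and glial markers summed to 23700, 10900, 12100 and 1980 CPM. Their part in the brain levels was not tested. With brain replicates 3 and 4 left out, 7 members in place of 3 were specific to the pituitary. The share of all genes in that setting is not given here.

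Some members were far higher in brain replicate 2 than in the other brain libraries. Among 131 members with a mean brain FPKM of at least 1, 7 had a highest library at least 3 times the next, and 5 of these were highest in replicate 2. All genes were not counted in this way, so it is open whether 7 is few or many. The SNAP-25-B-like genes, whose product is the second SNAP-25 of teleosts, had the widest span. LOC106607199 measured 9.17, 162, 4.14 and 1.22 FPKM, and LOC106611384 measured 12.1, 100, 3.27 and 0.487. Synaptotagmin XII, syt12, measured 17.2, 90.7, 8.86 and 11.4, synaptotagmin-6-like LOC106572565 measured 0.689, 8.76, 0.406 and 0.256, and SV2B-like LOC106573622 measured 7.06, 35.7, 5.09 and 7.34. Neither SNAP-25-B-like gene was called against the pituitary, at 3.76 ± 1.06 (adjusted p = 0.0071, edgeR's quasi-likelihood test) and 5.12 ± 1.16 (adjusted p = 0.0015), although both were called against ovary and liver. Of 5 genes named as the vesicular glutamate transporter VGLUT1, which loads glutamate into vesicles, 3 had the same profile, with 72.6 in replicate 2 against 1.31 or less in the others for LOC106606378, 44.7 against 0.772 or less for LOC106606332 and 43 against 0.89 or less for LOC106601845. The fourth, LOC106578273, measured 0.949, 0.0828, 0.241 and 3.6, and the fifth, LOC106579380, measured 0.0312 or less. VGLUT2.1, LOC106587477, did not, at 19.3, 8.91, 6.16 and 9.69, nor did the vesicular inhibitory amino acid transporter LOC106566112 at 17.9, 8.47, 11.3 and 12.3. The profile was not confined to VGLUT1 among the partners of the release genes. Bassoon-like LOC106583441 measured 1.43, 20.5, 0.505 and 1.92, and unc-13 homolog B-like LOC106562431 measured 3.81, 22.2, 0.708 and 2.19. Rabphilin-3A-like LOC106580372 measured 6.34, 31.7, 2.53 and 2.68. Other partners lacked it, such as bassoon-like LOC106566792 at 3.96, 2.41, 1.54 and 3.51. How many partners had it was not counted. Which region of the mid-brain each library held is not given in the sources used here.

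**Figure D5:**
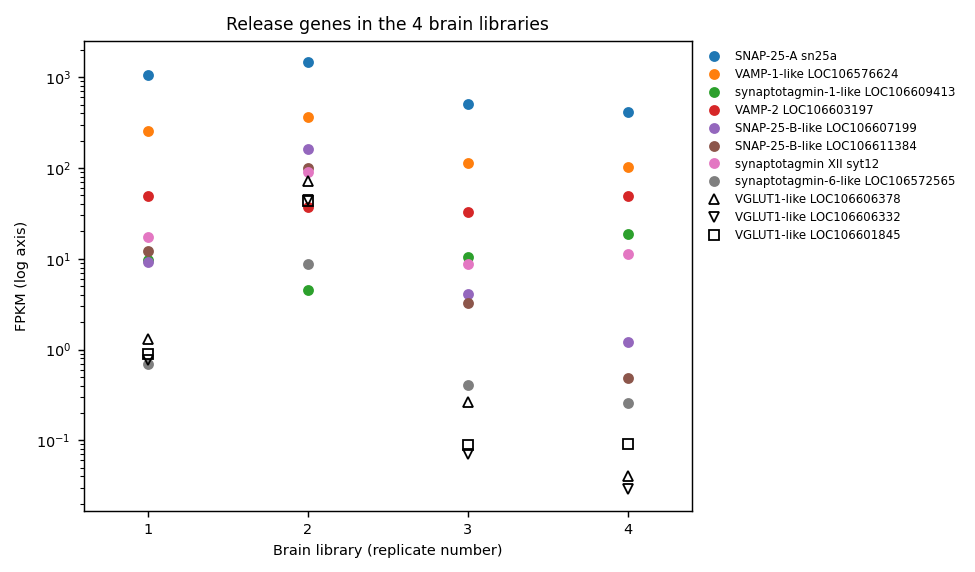
FPKM (log axis) of 8 members (filled) and 3 of the 5 VGLUT1-like genes (open) in the 4 brain libraries. VAMP-2 spans 33 to 49, sn25a 417 to 1470 and VAMP-1-like 102 to 367, and the SNAP-25-B-like genes and the 3 plotted VGLUT1-like genes are far higher in library 2 than in the other 3.

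The partners of these proteins were followed in a list of 191 other genes of vesicle release and recycling, of which 145 were tested. Against the liver 98 were higher in the brain and 1 in the liver, where 22.1% and 10.8% of all genes were. Against the ovary 90 were higher in the brain and 11 in the ovary (of all genes, 27.6% were higher in the brain and 46.6% were called in either direction), and against the pituitary 39 were higher in the brain and 7 in the pituitary (10.7% and 4.91%). In the pituitary 64 were higher than in the ovary and 10 lower (22.3% and 18.9%), and 71 were higher than in the liver and 3 lower (17.3% and 10.9%). For 34 partners the ovary exceeded the liver and for 8 the liver exceeded the ovary (22.3% and 18.5%). Specific to the brain were 32, to the pituitary 5, to the ovary 7 and to the liver 0, beside 6.11%, 2.16%, 11.1% and 5.80% of all genes. Active zone genes, which scaffold the release site, were higher in the brain than in the ovary in 32 of 42 (27.6% of all genes), and higher in the pituitary than in the ovary in 25 of 42 (22.3%). Some of their brain means, that of bassoon-like LOC106583441 among them, rested mostly on brain replicate 2.

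Several partners changed gene between tissues as the SNAREs did. The genes given are examples, and not all partners called in the most pairs are described. Syntaxin-binding protein 1 (Munc18-1), LOC106567272, which chaperones neuronal syntaxin, measured 133 ± 61.9 FPKM in the brain, 7.13 ± 0.188 in the pituitary, 1.2 ± 0.107 in the ovary and 1.01 ± 0.3 in the liver. Its relative syntaxin-binding protein 2, LOC100380738, the Munc18 of epithelial and blood cell granules in mammals, was ovary-specific at 14.3 ± 1.06 against 2.94 ± 0.464 in the pituitary (2.28 ± 0.34, adjusted p = 1.4e-05, edgeR's quasi-likelihood test). A second gene of that product name was also ovary-specific, at 12.5 ± 0.912. The most abundant gene of that name was not specific, with 24.3 ± 0.505 in the ovary, 13.6 ± 1.67 in the pituitary, 12.8 ± 0.344 in the liver and 4.11 ± 2.02 in the brain. The ATPase that takes spent SNARE complexes apart, nsf, measured 127 ± 45.6 in the brain and 12.2 ± 0.441 in the pituitary. A gene named as similar to it was also brain-specific, at 57.5 ± 28.4. Another gene of the same product name as nsf was highest in the ovary, at 23.4 ± 0.864 against 3.03 ± 0.311 in the brain. A further gene of that name was called in no pair. The granule GTPase Rab-3D was led by the pituitary, with rab3d at 90.8 ± 9.87 there, 42.2 ± 1.19 in the ovary and 12.7 ± 4.92 in the brain, and with LOC106601190 and LOC106601364 pituitary-specific at 53.5 ± 2.61 and 29.4 ± 2.34. Priming factors of dense-core granules were likewise divided. CAPS1-like LOC106582941 was pituitary-specific at 17.5 ± 2.96 against 3.75 ± 1.01 in the brain (2.22 ± 0.20, adjusted p = 3.3e-07, edgeR's quasi-likelihood test). Another CAPS1 gene had the reverse order and was brain-specific, at 19.2 ± 8.47 in the brain and 4.19 ± 1.16 in the pituitary. The remaining CAPS1 genes, at 20.1 ± 8.46 and 2.88 ± 0.754 in the brain and 6.72 ± 0.826 and 4.76 ± 0.317 in the pituitary, were not called between these tissues. CAPS2-like LOC106584557 was ovary-specific at 6.05 ± 0.627. In the liver the highest partner was snaa, alpha-SNAP, which helps nsf take SNARE complexes apart, at 14.9 FPKM.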

How the data were processed

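Total RNA of the 4 tissues was made into stranded mRNA libraries (TruSeq, NovaSeq). Per the study's methods, the authors mapped reads to ICSASG_v2 with TopHat2 2.1.1 and SAMtools 1.4 and deposited raw counts of uniquely mapped reads on exons from HTSeq 0.7.2. The strand setting is not given in the sources used here. A centered log2 table was not used here. Names, positions and merged exon lengths came from the deposited annotation, and RefSeq symbols from Ssal_v3.1.

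The counts of all 16 libraries (20.6 to 51.9 M, so low counts limit precision to the floor of 3 reads) were fitted in 1 model with a mean per tissue in edgeR 4.0.16 under R 4.3.3 (TMM, filterByExpr, glmQLFit, glmQLFTest), with thresholds from the study's methods. SE is the absolute log2 fold change over the square root of F. The procedure was tested on simulated data. Alternatives were DESeq2 1.42.0 size factors and Wald test, plain totals, other filters, the replicate block and left-out libraries. CPM used TMM-scaled totals.

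Members and lists were chosen with earlier results of these data known. Named by rule were, per family, the gene with the highest FPKM in each tissue, the tissue-specific gene with the largest smallest fold change, LOC106582708 and genes of the same product name. From the partner list the rule took the highest in each tissue and those called in most pairs. Several partners tied for most pairs, and only some of them are described. No rule set the choice among those tied partners, which was made with their values known. Chosen after their values were seen were LOC106567662, stx2, stx3, LOC106604672, LOC106589274, LOC106603197, LOC106563390, LOC106588428, LOC106570163, LOC106568330, LOC106580511, LOC106585118, LOC106561125, snap23, LOC106607199, LOC106611384, syt12, LOC106572565, LOC106573622, LOC106589230, LOC100380738 and the VGLUT1, VGLUT2.1 and inhibitory amino acid transporters. The partners LOC106583441, LOC106562431, LOC106580372 and LOC106566792 were also chosen in this way.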

Additional observations from a re-analysis of the deposited data

Results flagged for a closer look

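In 270 groups of 4 libraries (101 genes named in the text, mean CPM no lower than 1), 19 had a highest or lowest library that stood apart from the other 3 by Dixon's criterion. Chance alone gives about 1 in 20 for groups picked without regard to their values. Of the 101 genes, 51 were not named by rule, and some of these were chosen for their values. The 19 therefore cannot be read against that rate. Of the 19, 8 were in the brain, each a highest value in replicate 2. They were 162 FPKM for LOC106607199 against 1.22 to 9.17 in the others, 100 for LOC106611384 against 0.487 to 12.1, 90.7 for syt12 against 8.86 to 17.2, 8.76 for LOC106572565 against 0.256 to 0.689 and 35.7 for LOC106573622 against 5.09 to 7.34. The VGLUT1-like genes LOC106606378, LOC106606332 and LOC106601845 had 72.6, 44.7 and 43 against 1.31 or less. These 8 genes were chosen for their values in that library. Complexin LOC106609885 had 24.3 in pituitary replicate 2 against 3.11 to 4.86. VAMP-8-like LOC106562364 had 3.42 in ovary replicate 3 against 0.0507 to 0.144. Among the partners, LOC100380738 had 12.7 in ovary replicate 1 against 14.7 to 15 and Rab-3D LOC106601364 had 4.34 in ovary replicate 3 against 5.39 to 5.44. Extended synaptotagmin-2-B-like LOC106599471 had 7.24 FPKM in pituitary replicate 2 against 6.4 to 6.5 in the others. The syntaxin LOC106600813 had 2.09 in pituitary replicate 4 against 1.36 to 1.44, and 0.826 in liver replicate 4 against 1.02 to 1.04. Gene vamp7 had 26.4 in ovary replicate 4 against 19.3 to 19.7. SV2C-like LOC106560774 had 1.78 in liver replicate 1 against 2.72 to 2.84. Synapsin-2 LOC100136520 had 0.947 in pituitary replicate 3 against 0.0339 to 0.114, and 1.03 in ovary replicate 3 against 0.0152 to 0.0523, so the same replicate number stood apart in both tissues.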

How the results depend on the processing

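With plain library totals, 3 members were higher in the liver than in the brain (9 with composition factors), 3 higher in the liver than in the pituitary (7), 8 higher in the liver than in the ovary (17), 62 higher in ovary over liver (30) and 16 specific to the ovary (10). The shares of all genes moved as well. Those higher in the liver became 5.37% against the brain (10.8%), 7.06% against the pituitary (10.9%) and 9.75% against the ovary (18.5%). For ovary over liver the share was 42.0% (22.3%). The members specific to the pituitary numbered 7 (3) without brain replicates 3 and 4. The other counts of members and partners stayed within 1.5 times under these settings, DESeq2 size factors, the DESeq2 Wald test and both filters, and no called result reversed. Leaving out 1 library in turn gave 36 to 43 brain-specific members, 2 to 4 pituitary-specific, 9 to 10 ovary-specific and 3 to 4 liver-specific. Shares of all genes specific to a tissue are not given for any of the alternative settings. Shifts in the tissue-specific counts therefore cannot be read as particular to the members. With the replicate number as a block, the counts also stayed within 1.5 times, with 37 brain-specific members, and vamp7 in the ovary over the brain slipped just under the limit. The sources used here do not say that the number marks a fish, so it is no proven pairing. Of 24 same-numbered library pairs, 21 correlated best with their own number, and 10 correlated above 0.1 (range -0.00244 to 0.158). Gene vamp7 also lost its call in 8 other settings (1.68 to 1.99). Gene syp passed the limit over the pituitary with plain totals (2.21) and without brain replicates 3 and 4 (2.1). Low-level genes are limited in precision by their few reads. The chosen floor of 3 reads stood highest in the liver libraries, at 0.25 to 0.275 CPM.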

Other observations

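Besides synapsin-2, some members had uneven reads among libraries of 1 tissue. VAMP-2-like LOC106570163 had 13, 6, 70 and 7 reads in ovary replicates 1 to 4 and 0, 2, 10 and 1 in the pituitary, against 82 to 250 in the brain and 0 in the liver. VAMP-8-like LOC106562364 had 3, 6, 176 and 8 reads in the ovary, but 54 to 100 in the pituitary with no library apart. Synaptotagmin-6-like LOC106565416 had 123, 1, 0 and 158 reads in the ovary and 201 to 234 in the pituitary. These genes were chosen after their values were seen.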
